A study of Mus musculus with 4 samples.

Results

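Transthyretin (Ttr) and 6 further genes of the choroid plexus, Enpp2, Kl, Sostdc1, Folr1, Kcnj13 and Clic6, were followed through every spot of 4 coronal brain sections. These are 7 of the 32285 genes counted in the sections. They were chosen by name as genes of the choroid plexus, and with the difference of Ttr and Enpp2 between trained and untrained mice in these same sections already known. Their values by training are therefore given as a description, with no test. The sections came from 2 trained and 2 untrained adult male ArcCreERT2::eYFPflx mice, 3 to 4 months old and on a C57BL/6 background. In active place avoidance (APA) the trained mice had learned to stay out of a shock zone on a rotating arena, whereas the untrained mice were placed on the same arena with the shock switched off. In this line the Arc promoter drives a Cre recombinase that is active only after 4-hydroxytamoxifen, so that neurons expressing Arc near the retention test keep the reporter eYFP, and all 4 mice carried the alleles, were briefly anesthetized and received the drug. Tissue was collected 3 days after the retention test. Each mouse gave 1 section, so that mouse, section plane, tissue handling and library cannot be told apart.

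The choroid plexus is a folded epithelium inside the brain ventricles that secretes cerebrospinal fluid. Its epithelial cells make transthyretin, a carrier of thyroid hormone and, through retinol binding protein, of vitamin A, and release it into that fluid. Enpp2 encodes autotaxin, the secreted enzyme that makes lysophosphatidic acid, and is also a gene of myelinating oligodendrocytes. Kl encodes klotho, a co-receptor for a hormone of the fibroblast growth factor family. Sostdc1 encodes a secreted antagonist of BMP and Wnt signals, Folr1 the folate receptor that carries folate across the epithelium, Kcnj13 an inward rectifier potassium channel and Clic6 a member of the chloride intracellular channel family.

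In Visium each capture spot has its own barcode and samples the RNA of a small patch of tissue, and a unique molecular identifier (UMI) stands for 1 captured molecule. Between 2359 and 3055 spots lay over tissue. Values for single sections are given throughout in the order trained 1, trained 2, untrained 1, untrained 2. The total depth was between 3560294 UMIs in untrained 1 and 10330015 in trained 2. Levels are given as counts per 1000000 UMIs (CPM) of the spots named, and differences on the log2 scale are log2 ratios of such levels. Trained 2 stood apart in more than the members. Its 6 listed hypothalamic genes summed to 2349 CPM over the section, against 462 to 1327 in the other sections, its 6 oligodendrocyte genes to 6485 CPM, against 3848 to 4312, and its 4 blood genes to 454 CPM, against 637 to 816. The part of these differences in the results below was not tested.

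Choroid plexus spots were defined in each section as the 1% of spots with the most summed UMIs of the 7 genes, which gave 29, 31, 24 and 27 spots. The last spot inside this limit held 247, 25, 22 and 84 member UMIs and the first spot outside it 217, 23, 21 and 82. The chosen spots were not scattered. They formed 3, 3, 6 and 3 groups of touching spots, and the largest group had 15, 20, 17 and 20 spots. By marker genes 11 of 29, 22 of 31, 20 of 24 and 21 of 27 lay in ependymal spots, those led by genes of the ventricle lining. Another 11 spots of trained 1, 4 of trained 2 and 3 of untrained 2 were meningeal, and the rest were 5 habenular and 2 DG spots in trained 1, 3 striatal or amygdalar, 1 white matter and 1 habenular spot in trained 2, 2 CA1 and 2 white matter spots in untrained 1 and 3 white matter spots in untrained 2.

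The label of the spots was checked with 33 further genes of the choroid plexus that took no part in choosing them, among them Otx2, a transcription factor of this epithelium, Aqp1, its water channel, and Igf2 and Igfbp2. They were listed with earlier results of these data known, so that the check is not independent. Of the 32 with at least 20 UMIs, 29 were higher in the choroid plexus spots than in the rest of the section in all 4 sections. The share of all genes with this order is not given here. Their summed level in the chosen spots was 9226, 2467, 3857 and 8035 CPM, and in the other spots 262, 192, 233 and 251 CPM. The chosen spots of trained 2 were thus the least rich in these genes, and they held the most oligodendrocyte RNA, with 18669 CPM of the 6 listed genes against 2040 to 5631 in the other sections. The members made up 22.5, 3.47, 8.16 and 20.2% of the UMIs of the chosen spots.

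**Figure D1:**
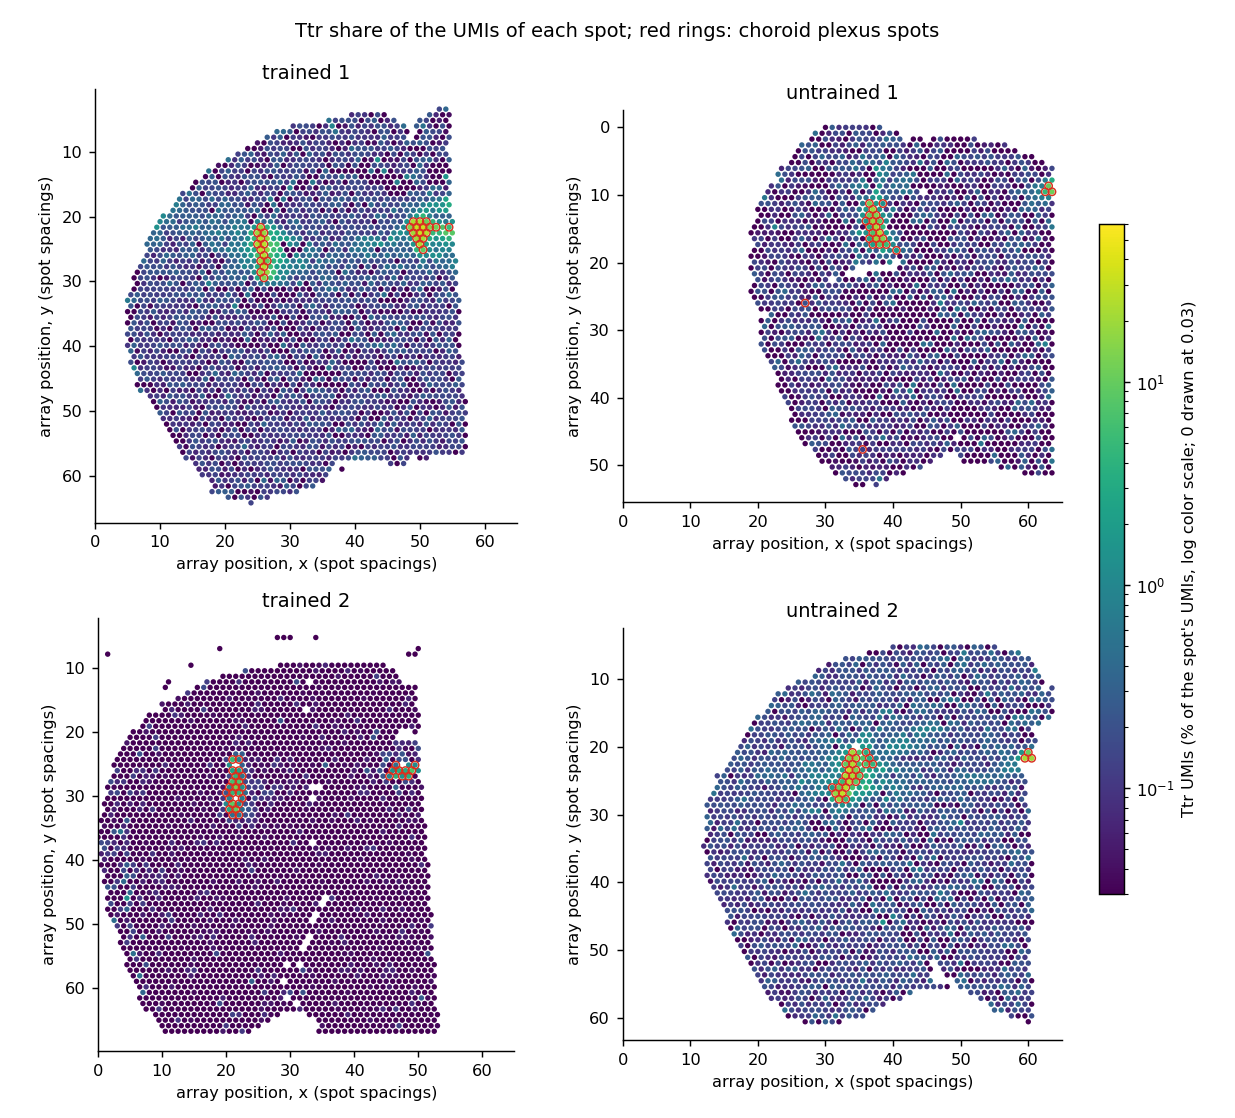
Map of the 4 sections by array position, with both axes in spacings between neighboring spots. Each dot is 1 spot, its color is the share of its UMIs that came from Ttr in percent on a log color scale, and red rings mark the 29, 31, 24 and 27 choroid plexus spots; the brightest spots lie in compact groups, and the rest of trained 2 is darker than the rest of the other sections.

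Ttr was the most counted member in every section. It had 38758, 5242, 8569 and 34330 UMIs, which was 5444, 507, 2407 and 5216 CPM. Trained 1 and untrained 2 were close to each other, untrained 1 lay below them and trained 2 was lowest, so that the training conditions overlapped. In the choroid plexus spots Ttr was at 208042, 30519, 75753 and 187644 CPM. A spot can hold more epithelial cells or more Ttr RNA in each of them, and the data cannot tell these apart. Spots in which Ttr passed 5% of all UMIs numbered 43, 7, 15 and 28.

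Away from these spots Ttr dropped steeply and then more slowly, without reaching 0. Within 1 spacing of a choroid plexus spot it was at 28644, 1693, 3451 and 16249 CPM. Beyond 12 spacings it was at 1243, 145, 964 and 1458 CPM. Between 8 and 12 spacings the levels had been 1590, 132, 1062 and 1767 CPM, so that from there Ttr still dropped in 3 sections and was slightly higher in trained 2. More than 3 spacings away, which is called far from here on, lay 25.1% (95% exact binomial interval 24.7 to 25.5), 26.9% (25.7 to 28.1), 40.3% (39.2 to 41.3) and 30.2% (29.7 to 30.6) of all Ttr UMIs of the section. These intervals cover counting error only. Over 5 other choices of the spots or the distance the shares ran from 21.7 to 26.1, 21.5 to 28.5, 27.9 to 44.1 and 26.1 to 31.2%. The far level of Ttr was lowest in trained 2, at 145 CPM, and lay at 1465 CPM in trained 1, 1079 in untrained 1 and 1664 in untrained 2, an 11.5-fold range over the 4 sections. The level in the choroid plexus spots had a 6.82-fold range. In the choroid plexus spots Ttr was 142, 211, 70.2 and 113-fold higher than far away. These spots had been chosen largely by Ttr itself. With the same number of spots chosen by the further choroid plexus genes instead, of which 24, 14, 13 and 19 were the same spots, Ttr was at 205859, 12790.4, 71355 and 162741 CPM, a 16.1-fold range, and 141, 83.6, 64.7 and 96.6-fold higher than far away.

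Enpp2 shared the peak but not the far field of Ttr. In the choroid plexus spots it was at 14112, 3586, 4497 and 12171 CPM, with trained 2 lowest and untrained 1 next to it, as for Ttr. Far away it was at 231, 223, 212 and 237 CPM. These 4 values lie within 1.12-fold of each other, whereas those of Ttr in the same spots had the 11.5-fold range above. Of the Enpp2 UMIs of the section 42.8, 76.5, 64.9 and 47.5% were far. In trained 2 and untrained 1, the sections with the least Ttr, most Enpp2 UMIs were thus counted away from the choroid plexus spots.

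**Figure D2:**
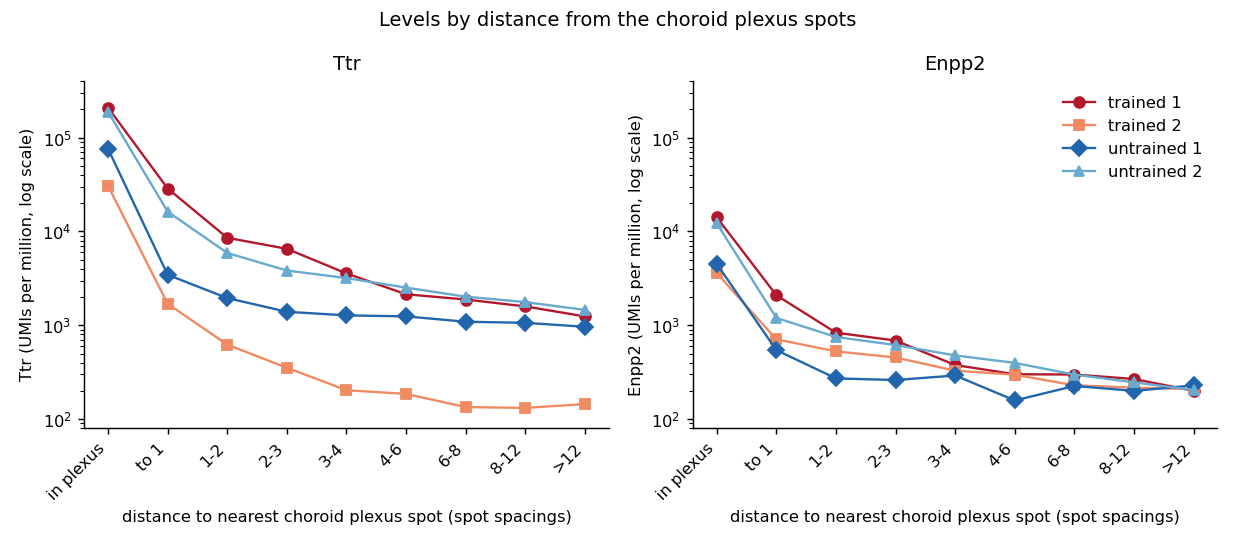
Ttr (left) and Enpp2 (right) in CPM on a log scale against the distance to the nearest choroid plexus spot in spot spacings, 1 line per section. The Ttr lines stay apart to the last bin (1243, 145, 964 and 1458 CPM), whereas the Enpp2 lines come together far out, at 200.2 CPM in trained 1, 209 in trained 2, 229 in untrained 1 and 204 in untrained 2.

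The other 5 members were counted far less often, with 478 UMIs of Kl, 426 of Clic6, 218 of Sostdc1, 163 of Folr1 and 99 of Kcnj13 over the 4 sections. All were densest in the choroid plexus spots, which their UMIs had helped to choose. Kl was at 1180, 238, 505 and 688 CPM there, and at 7.68, 2.26, 11.9 and 8.04 CPM far away. Both sets of values were lowest in trained 2. Clic6 was at 573, 132, 371 and 510 CPM in the choroid plexus spots and at 9.79, 7.09, 7.81 and 9.16 CPM far away. Like Enpp2 it had a narrow far range, 1.38-fold over the sections. Sostdc1 ran from 79.3 to 451 CPM in the choroid plexus spots and from 1.34 to 7.50 CPM far away, and Folr1 from 44.1 to 314 CPM and from 0.616 to 3.13 CPM. Kcnj13 ran from 52.9 to 246 CPM in the choroid plexus spots. Its far level of 0.308 to 1.25 CPM rests on 3 to 7 UMIs per section.

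**Figure D3:**
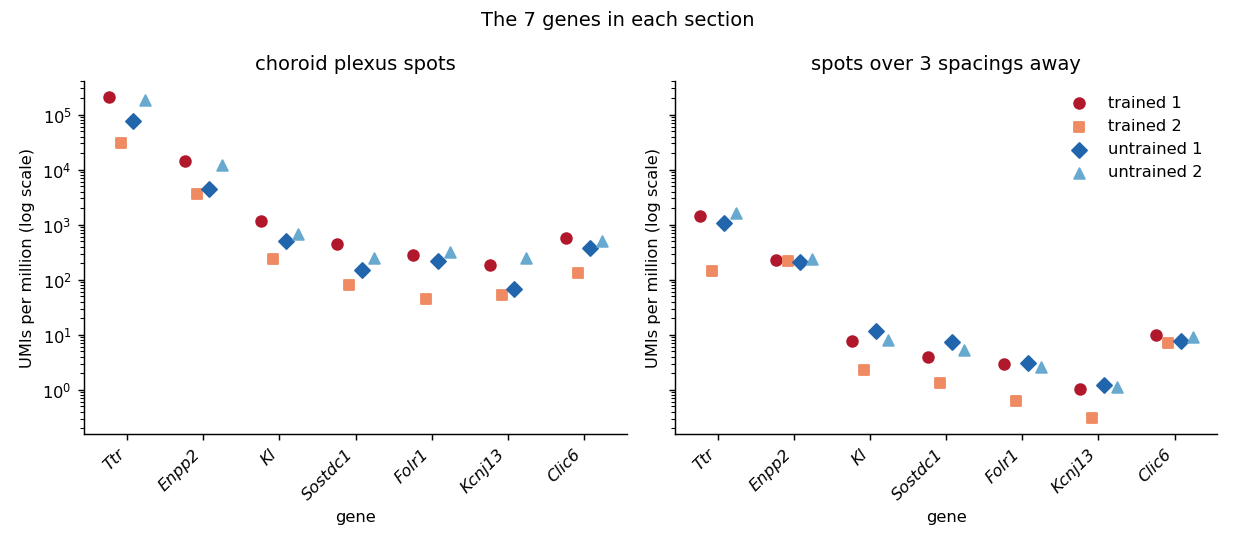
Level of each of the 7 genes in CPM on a log scale, with 1 point per section, in the choroid plexus spots (left) and in spots more than 3 spacings away (right). In the right panel the 4 points of Enpp2 lie between 212 and 237 CPM and nearly coincide, while those of Ttr lie between 145 and 1664 CPM.

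On the mouse assembly GRCm38 Enpp2 lies at chr15:54838901-54952892, Kl at chr5:150952607-150993817, Sostdc1 at chr12:36314139-36318452, Folr1 at chr7:101858331-101870788, Kcnj13 at chr1:87386363-87394729 and Clic6 at chr16:92485736-92541243. The 250 bases before the transcription start of Kl and of Kcnj13 are shown so that the promoters of a pair of genes densest in the same spots can be read side by side, and these were the 2 of the 7 members matched in the promoter table. They were read in the direction of the gene from RefSeq on GRCm38.p6, at chr5:150952357-150952606 (plus strand) and chr1:87394730-87394979 (minus strand), and capitals mark the matches to the motifs GGGCGG (the GC box), CCAAT (the CCAAT box), TATAAA (the TATA box) and TAATCC (a core bound by homeodomain factors of the OTX family) on either strand.
Kl: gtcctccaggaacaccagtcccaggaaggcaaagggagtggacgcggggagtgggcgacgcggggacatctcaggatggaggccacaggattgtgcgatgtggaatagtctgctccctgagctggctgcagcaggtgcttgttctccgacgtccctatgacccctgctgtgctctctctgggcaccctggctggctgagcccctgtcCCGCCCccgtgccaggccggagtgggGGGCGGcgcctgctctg
Kcnj13: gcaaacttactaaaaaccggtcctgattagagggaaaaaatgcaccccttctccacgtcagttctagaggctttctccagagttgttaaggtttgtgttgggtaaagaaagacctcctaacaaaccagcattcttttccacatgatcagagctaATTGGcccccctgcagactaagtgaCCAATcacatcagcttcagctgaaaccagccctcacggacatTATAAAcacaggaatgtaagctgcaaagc
The Kl sequence has 2 matches to GGGCGG and a GC content of 66.8%, against a median of 52.4% over all 32851 promoters of the reference table. That of Kcnj13 has 2 matches to CCAAT, 1 to TATAAA and a GC content of 45.2%. Neither holds TAATCC, which 6.25% of all promoters of this length hold, as do 4 of 45 promoters matched to the further choroid plexus genes. These 45 belong to 29 genes, so that they are not separate genes. GGGCGG is in 32.7% of all promoters and 20 of the 45, CCAAT in 33.8% and 8, and TATAAA in 12.4% and 4. The searched motifs do not overlap one another in the letters shown. A match describes the letters and not a bound site.

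Whether the members kept their proportions away from the choroid plexus was asked by dividing each by Ttr in the same spots, which needs no total. In the choroid plexus spots there were 67.8, 117, 59.4 and 64.9 Enpp2 UMIs per 1000 Ttr UMIs. Far away there were 158, 1536, 196 and 143. Enpp2 per Ttr was higher far away in 4 of 4 sections, by 1.95 ± 1.2 on the log2 scale (SD, n = 4). Clic6 per Ttr was also higher far away in 4 of 4 sections, from 2.72 to 4.89 per 1000 in the choroid plexus spots to 5.51 to 48.9, a mean of 1.58 ± 1.29 on the log2 scale. Sostdc1 per Ttr was higher in 4 of 4 as well, by 1.29 ± 0.69, from 1.31 to 2.60 per 1000 to 2.67 to 9.21.

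Kl, Folr1 and Kcnj13, a co-receptor, a receptor and a channel, had smaller mean differences. Kl per Ttr differed by 0.51 ± 0.48 and Folr1 per Ttr by 0.51 ± 0.74, each higher far away in 3 of 4 sections, and Kcnj13 per Ttr by -0.08 ± 0.61, higher in 2 of 4. Ttr gave 63.4 to 90.7% of all member UMIs of a section, and the choroid plexus spots were chosen by member UMIs. A choice by high Ttr can lower the ratios inside them, so that these differences are a description, with no test. With spots chosen by the further choroid plexus genes they were 1.92 for Enpp2, 1.64 for Clic6, 1.39 for Sostdc1, 0.70 for Folr1, 0.51 for Kl and -0.19 for Kcnj13. Trained 2 had the highest far ratio for each of the 6 genes.

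**Figure D4:**
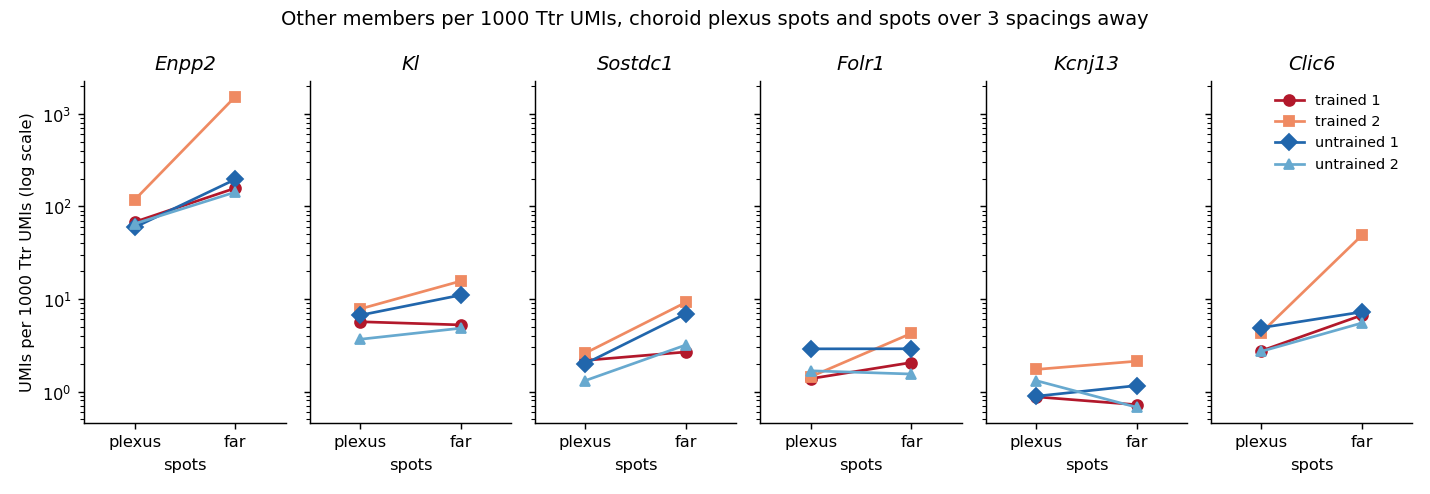
UMIs of each other member per 1000 Ttr UMIs on a log scale, in the choroid plexus spots and in spots more than 3 spacings away (far), with 1 line per section. The lines of Enpp2, Sostdc1 and Clic6 go up in 4 of 4 sections and those of Kcnj13 in 2 of 4; trained 2 goes from 117 to 1536 for Enpp2.

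Levels were then compared between brain regions in spots more than 3 spacings from the choroid plexus spots. Spots were given a region by the marker list that led them, and UMIs were summed per region and section. The CA1, CA3 and DG spots, led by genes of CA1 pyramidal, CA3 pyramidal and DG granule neurons, had 153 to 187, 136 to 166 and 101 to 169 spots per section. Ttr levels differed more between sections than between regions. Its mean over the 4 sections was 1142 CPM in CA1, 1179 in CA3, 1272 in DG, 1121 in cortex, 1166 in thalamus, 959 in hypothalamus and 934 in white matter, with SDs of 607 to 862. Trained 2 was the lowest section in all 7, at 124 to 167 CPM. In cortex the values were 1582, 138, 1154 and 1610 CPM, and in CA1 1397, 127, 1251 and 1793. Against cortex, with the section as a block, Ttr differed on the log2 scale by 0.03 (SE 0.09) in CA1, 0.08 (0.09) in CA3, 0.19 (0.09) in DG, 0.04 (0.08) in thalamus, -0.19 (0.09) in hypothalamus and -0.11 (0.09) in white matter. None passed (edgeR quasi-likelihood test, adjusted p from 0.0814 in hypothalamus to 0.922 in CA1). The hypothalamus was below cortex in 4 of 4 sections and passed without trained 2 (-0.24, adjusted p 0.0116, edgeR) and with no filter, and 0.0116 to 0.558 was the range of its adjusted p over 11 alternatives. DG passed without untrained 1 (0.28, adjusted p 0.0471, edgeR). When spots near the choroid plexus were kept in, Ttr was 1.05 higher in DG and 0.98 higher in white matter. No test is given for these 2 values, since the sums hold spots chosen for their member UMIs. Such spots were 2 in DG of trained 1, and in white matter 1 of trained 2, 2 of untrained 1 and 3 of untrained 2.

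Enpp2 by contrast marked the white matter. There it was at 536, 600, 674 and 684 CPM, and in cortex at 204, 205, 201 and 225. No white matter value overlapped a cortex value, and the difference was 1.68 on the log2 scale (SE 0.10, 4 of 4 sections, edgeR adjusted p 1.88e-22). It passed in all 11 alternatives, with values from 1.58 to 1.95. In thalamus Enpp2 was at 287, 194, 299 and 288 CPM, higher than in cortex in 3 of 4 sections and lower in trained 2. The difference of 0.32 passed (SE 0.10, edgeR adjusted p 0.00864) but not without trained 1, where it was 0.26 (adjusted p 0.097, edgeR). In CA1, CA3, DG and hypothalamus Enpp2 was within 0.18 of cortex on the log2 scale, at -0.03, 0.08, -0.11 and -0.17, and did not pass. In descending order of the mean level the regions ran from white matter (623 ± 69.1 CPM, SD, n = 4) and thalamus (267 ± 48.9) to CA3 (213 ± 49.3), cortex (209 ± 10.9), CA1 (200.4 ± 17.6), DG (197 ± 38.7) and hypothalamus (181 ± 6.09), and from CA3 to DG the neighbors in this order differed by less than their SDs.

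**Figure D5:**
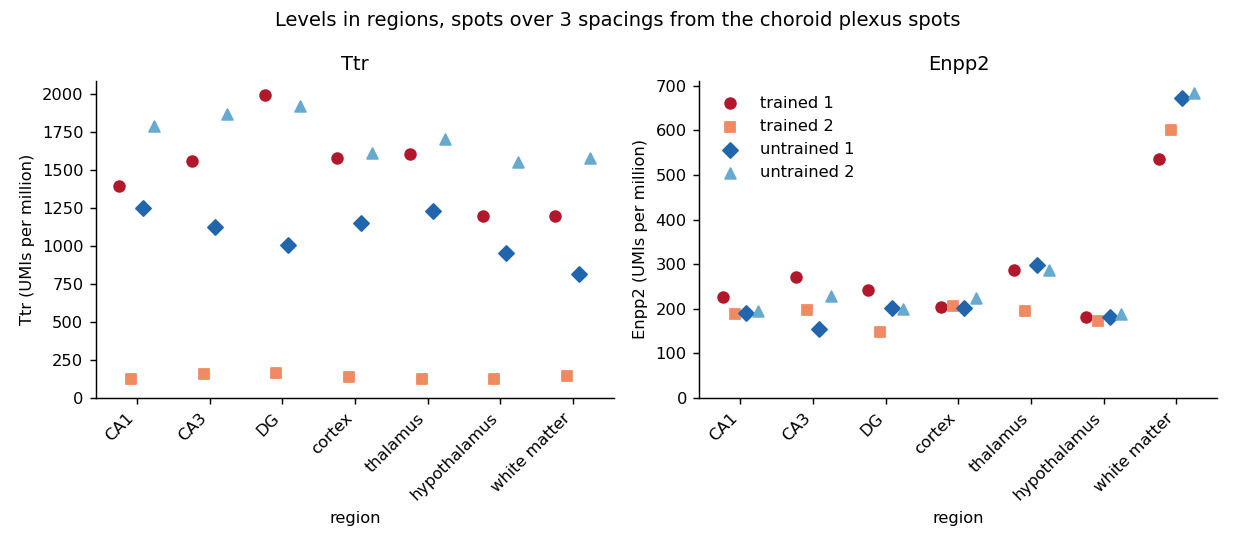
Ttr (left) and Enpp2 (right) in CPM in 7 regions, spots more than 3 spacings from the choroid plexus spots, with 1 point per section and both axes starting at 0. Ttr separates the sections (trained 2 at 124 to 167 CPM) and not the regions, and Enpp2 separates white matter (536 to 684 CPM) from cortex (201 to 225 CPM).

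Of the 7 members, Ttr and Enpp2 passed the filter on low counts in the fit across regions, and 1 member was called in thalamus and in white matter and 0 in CA1, CA3, DG and hypothalamus (at an unadjusted p under 0.05, 0 in CA1 and CA3, 1 in DG and 1 in hypothalamus). DESeq2 called 1 each in CA1 and hypothalamus and 0 in CA3 and DG. Over all 9122 genes tested the share called against cortex was 7.84% in CA1, 7.90% in CA3, 13.0% in DG, 30.0% in thalamus, 32.0% in hypothalamus and 31.7% in white matter. The other 5 members were too sparse. Among them Clic6 was at 13.2, 13.9, 8.87 and 24.7 CPM in the hypothalamus and at 5.48, 2.58, 6.34 and 6.05 CPM in cortex, higher in 4 of 4 sections, on 51 and 23 UMIs. Without the filter it passed (1.68 on the log2 scale, adjusted p 8.7e-05, edgeR), and in DESeq2 likewise (1.75, adjusted p 0.000513). In spots led by genes of striatum and amygdala Clic6 was at 25.5, 29.1, 14.3 and 28.7 CPM. Kl was at 17.9, 7.47, 45.1 and 8.38 CPM in CA1 on 28 UMIs, and at 23.8, 3.97, 20.9 and 14.4 CPM in DG on 18 UMIs, against 5.48, 2.06, 6.34 and 8.65 in cortex. The CA1 value passed without the filter (1.55, adjusted p 0.0121, edgeR) and in DESeq2 (1.65, adjusted p 0.0121), and was below cortex in untrained 2. Kcnj13 had 0 UMIs in CA1 and in DG, which allows up to 1.74 and 2.21 CPM over the 4 sections.

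Genes that act with the members were taken from a list of 28, which covers transport and action of thyroid hormone and retinol, signaling by lysophosphatidic acid, folate transport and the co-receptors of klotho and Wnt. In the fit across regions 14 of them passed the filter. In white matter 7 were called, 2 higher and 5 lower than in cortex. Lpar1, a receptor for the lysophosphatidic acid that autotaxin makes, was at 84.1 ± 9.35 CPM (SD, n = 4) in white matter and 10.7 ± 5.24 in cortex, 2.95 higher on the log2 scale (SE 0.25, edgeR adjusted p 1.31e-15). It was also higher in thalamus, by 1.13 (SE 0.27, edgeR adjusted p 0.000477), and in hypothalamus, by 0.81 (SE 0.28), where Enpp2 did not pass. The hypothalamic call held in 8 of 11 alternatives and was lost without trained 1 or trained 2. Plpp3, a phosphatase that degrades lysophosphatidic acid, was 0.47 higher in white matter (SE 0.15, edgeR adjusted p 0.0106), a call lost without trained 2 (0.38) and in DESeq2. In thalamus Plpp3 was 0.31 higher, a call that held in 5 of 11 alternatives and was lost, among others, without trained 1, trained 2 or untrained 2. Plpp3, Lpar1 and Thrb in hypothalamus and Dio2 in white matter lie outside the rule for named genes and were picked after their values were seen.

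Among genes that handle thyroid hormone or retinol, Crym, a thyroid hormone binding protein, was 1.72 higher in CA1 than in cortex (SE 0.14, edgeR adjusted p 7.68e-15), at 218 ± 18.7 against 71.9 ± 27.3 CPM, and lower in thalamus by 2.14, in hypothalamus by 1.37 and in white matter by 1.24. The thyroid hormone receptor gene Thra was 0.41 higher in CA1, 0.45 higher in DG and 0.66 lower in thalamus, and the DG call was lost with regions not averaged over neighbors (0.25). In CA3 it was 0.27 higher, a call that held in 5 of 11 alternatives. That call was lost without trained 1, trained 2 or untrained 2, in DESeq2, with no filter and beyond 6 spacings. The other receptor gene, Thrb, was lower in thalamus by 1.04, in hypothalamus by 0.80 and in white matter by 1.34, the last not without trained 2 (-0.83). Dio2, the deiodinase that activates thyroid hormone, was lower in hypothalamus by 1.77, and in white matter by 0.99. The white matter call held in 5 of 11 alternatives and was lost, among others, without trained 1, trained 2 or untrained 1. Klf9, a thyroid hormone target, was lower in hypothalamus by 1.08 and in white matter by 0.51, the last not with regions left unaveraged (-0.34). Rbp4, which encodes the retinol binding protein that transthyretin carries, was at 27.4 ± 8.94 CPM in cortex and lower in thalamus by 2.51, in hypothalamus by 1.91 and in white matter by 2.16. In DG Rbp4 was 1.04 lower, a call that held in 5 of 11 alternatives and was lost, among others, without trained 1 or either untrained section.

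Fgfr1, the receptor with which klotho forms a complex, was higher in CA1 by 1.08 (SE 0.21, edgeR adjusted p 0.000188), in DG by 1.13 (SE 0.23, edgeR adjusted p 0.000214) and in hypothalamus by 1.14 (SE 0.18, edgeR adjusted p 3.94e-07). The CA1 call was lost without trained 1, at 0.69. In all, 3 partners were called in CA1, 1 in CA3, 3 in DG, 6 in thalamus and 7 in hypothalamus. Of the 27 partner calls over the 6 regions, 17 held in every alternative. Of the further choroid plexus genes 5 passed the filter, and calls were made for Igf2 in DG (1.25 higher, SE 0.38, lost without untrained 1 at 0.91, without untrained 2 at 1.29 and with regions not averaged over neighbors at 0.96), Igfbp2 in hypothalamus (1.61 lower) and Col9a3 and Slc4a2 in white matter (1.38 and 1.40 higher).

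By training, the members are given over all spots of each region, those near the choroid plexus included. Ttr in CA1 was at 1407 and 195 CPM in the trained sections and 1293 and 1784 in the untrained. In CA3 it was at 1962 and 200.2, against 1183 and 2350, and in DG at 6946 and 183, against 1128 and 2062. These sums hold the choroid plexus spots that lay in a region, 2 in DG of trained 1, 2 in CA1 of untrained 1 and 1 to 3 in white matter of trained 2 and both untrained sections. In each region the trained values enclosed or overlapped the untrained ones, and in no region were both trained sections below both untrained. Trained minus untrained means were -1.54 in CA1 (SE 1.45), -1.41 in CA3 (1.72), -0.44 in DG (2.66), -1.54 in cortex (1.78), -1.70 in thalamus (1.86), -1.57 in hypothalamus (1.73) and -1.39 in white matter (1.44) on the log2 scale. In DG spots far from the choroid plexus the difference was -1.27 (SE 1.85), with 1993 and 167 CPM in the trained sections and 1008 and 1921 in the untrained. Over all spots of the regions the SE exceeded the difference in each region except CA1. The value over all spots was -1.09 (SE 1.80). The direction over all spots rested on trained 2. Without it Ttr was 0.62 higher in the trained section over all spots and 2.19 higher in DG, it was -0.11 in CA1 and -0.07 in white matter, and without trained 1 it was -2.80 over all spots.

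Enpp2 in all spots was at 503 and 274 CPM in the trained sections and 293 and 472 in the untrained, a difference of -0.00 (SE 0.56) on the log2 scale. In white matter both trained sections lay below both untrained, with a difference of -0.21 (SE 0.07) over all white matter spots and -0.26 (SE 0.08) over those far from the choroid plexus. The 6 listed oligodendrocyte genes had this order too in all white matter spots. They were at 18362 and 23011 CPM in the trained sections and 24223 and 25966 in the untrained, and a link with Enpp2 was not tested. For Enpp2 the same order held in thalamus (-0.31, SE 0.28). The sections of both conditions overlapped in CA1 (0.01, SE 0.13), CA3 (0.26, SE 0.40), DG (0.36, SE 0.87, and -0.09, SE 0.36, far from the choroid plexus), cortex (-0.04, SE 0.09) and hypothalamus (-0.02, SE 0.08). In hypothalamus far from the choroid plexus both trained sections were below both untrained (-0.06, SE 0.04). With 2 sections per condition, an exact permutation test of such an order cannot give a p below 0.333. Over all spots all 7 members were lowest in trained 2, and 5 of them, Ttr, Enpp2, Kl, Sostdc1 and Clic6, were highest in trained 1, with the untrained sections in between. The members share these libraries, so that the count is not 7 separate observations. All 7 members passed the filter over all spots, 2 in CA1, CA3, cortex, thalamus and white matter, and 3 in DG and hypothalamus.

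The further choroid plexus genes, which took no part in the rule for the members but were listed with results of these sections known, were tested. Of 33, 31 passed the filter over all spots, 24 of them with a lower mean in the trained sections and a median difference of -0.28 on the log2 scale against 0.01 over all 13810 genes tested. Single libraries moved both: without trained 2, 8 of 31 were lower (median 0.24), without untrained 2, 14 (0.01), without untrained 1, 28 (-0.44), and without trained 1, 30 (-1.14). edgeR called 0 of the 31 (3 at an unadjusted p under 0.05, Wfdc2, Slc13a4 and Cldn2), while 0.0145% of all genes tested were called. DESeq2, whose own filter on low counts kept 3726 genes, gave none of them an adjusted p and had 1 at an unadjusted p under 0.05. Of the 32 with at least 20 UMIs, 25 were lowest in trained 2 and 18 highest in trained 1. Their summed level was 407, 217, 294 and 390 CPM, the order that Ttr had. Without trained 1 edgeR called 12 of them, among them Igf2 (-1.50) and Ecrg4 (-1.76), and without trained 2 it called Ecrg4 the other way, 0.86 higher in the trained section. Within regions 0 were called in each of CA1, CA3, DG, cortex, thalamus, hypothalamus and white matter by edgeR, of 3, 3, 3, 8, 5, 7 and 2 tested, or by DESeq2, of 29 to 31 (2 at an unadjusted edgeR p under 0.05 in DG, 1 in white matter and 0 in the other regions). The share of all genes called there was 0.120% in CA1, 0.182% in CA3, 0.0402% in DG, 0.00958% in cortex, 0.0111% in thalamus, 0.0639% in hypothalamus and 0.238% in white matter.

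Of the 28 partners, 23 were tested over all spots and edgeR called 0, with Crym and Thra at an unadjusted p under 0.05. DESeq2 gave 4 of them an adjusted p and called 1, Crym (-0.79, adjusted p 0.00262). Crym was at 57.4 and 61.0 CPM in the trained sections and 104 and 90.4 in the untrained, which did not overlap (edgeR -0.79, SE 0.12, adjusted p 0.162), and was singled out after its values were seen. edgeR called it with no filter, without either trained section and with the replicate number as a block, at -0.80 to -0.78 on the log2 scale, but not without either untrained section. With a section left out, the lone section of its condition is assumed to vary like the other condition. Within regions the edgeR difference of Crym was -0.15 in CA1, -0.58 in CA3, -1.04 in DG, -0.78 in cortex, -0.51 in thalamus and -1.07 in hypothalamus, and none passed (edgeR adjusted p from 0.566 to 0.945). It was called in DG without trained 1 (-1.47), in cortex without untrained 2 (-1.19) and with the block (-0.76), and in hypothalamus without untrained 2 (-1.70). The summed level of the partners was 1207, 1246, 1332 and 1367 CPM, a narrow range beside that of the choroid plexus genes.

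Genes were ranked by their likeness to Ttr, taken as Pearson's r of log2(CPM + 10) over 32 sums, those of 7 regions and the choroid plexus spots in 4 sections, among 10730 genes with at least 200 UMIs. The points share libraries and the choroid plexus spots were chosen by the members, so that r is a description. The first were Ecrg4 (r = 0.904), Kl (0.904) and 2900040C04Rik (0.883), and Clic6, Sostdc1, Igf2, Calml4, Car12 and Slc13a4 followed (0.875 to 0.858). Of these, 3 are members and 5 are on the list of further choroid plexus genes. Enpp2 came after them with r = 0.850.

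How evenly the far Ttr was spread was read from single spots. A Ttr UMI was found in 90.6, 37.3, 77.0 and 95.0% of far cortical spots. Thinned to 500 UMIs per spot, which left out 18, 31, 20 and 11 shallower spots, the shares were 57.1, 7.22, 43.1 and 57.8%. The variance of the thinned Ttr counts over their mean was 1.03, 1.48, 1.18 and 1.06, where 1 is the value of counts spread at random. The mean was 0.825, 0.088, 0.599 and 0.866 UMIs per thinned spot, and at means this low an uneven spread moves the ratio little. For Enpp2 in the same spots it was 0.914, 1.03, 0.958 and 0.957. A ratio near 1 therefore cannot be read as an even spread. Far white matter spots had 34.4, 9.57, 38.3 and 52.9% after thinning, which left out 74, 29, 98 and 69 spots. The source of these distant Ttr UMIs was not tested.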

How the data were processed

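Sections were measured with 10x Genomics Visium, 10 µm thick, 1 per mouse. The authors deposited UMI counts per gene and spot, whole numbers with no normalization, with spot positions on the array. Per the file headers the counts come from Space Ranger 1.2.2. The methods name a later release and the mm10 reference, and the submitters' processing notes name Cell Ranger 8, STAR and mm39 (GRCm39), so that the pipeline is not settled. Depth ran from 3560294 to 10330015 UMIs per section, and a count of 0 was given a limit of 3 UMIs over the spots summed.

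The 7 genes and all gene lists were chosen with earlier results of these data known. Spots were given to CA1, CA3, DG, cortex, thalamus, hypothalamus, white matter or 4 other regions by the marker list with the highest score, from log2(1 + UMIs per 10000) scaled over spots and averaged over neighbors, with a minimum of 1 SD. These regions are rebuilt from genes and are not the annotation of the study. Counts were summed per region and section. Trained and untrained sums (2 residual degrees of freedom), and each region against cortex with section as a block, were compared with edgeR 4.0.16 in R 4.3.3 (filterByExpr, TMM, glmQLFit, glmQLFTest, two-sided, Benjamini-Hochberg over all genes tested, threshold 0.05). A section is the replicate. edgeR draws the spread of each gene toward a trend over all genes, with prior degrees of freedom of 8.15 over all spots. They were 24.4 in CA1, 97.0 in white matter and 45.1 in the region fit. With no filter, and over all spots without trained 1 or trained 2, they were infinite. A p-value there rests on the trend and not on the gene's own spread between sections. In the region fit the spread is that left after section and region. A region fit treats the 7 sums of a section as independent after the block. Ratios to Ttr had 0.5 added to each count and are given without the planned exact permutation test, since Ttr helped to choose the spots. Alternatives were DESeq2 1.42.0 and its size factors, no filter, totals without the members, other distances and choices of choroid plexus spots, regions without averaging, the replicate number as a block and each section left out.

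Genes were named by this rule: all members, listed genes called in a comparison (at most 5 per comparison and list, by p) and the 10 genes most like Ttr, of which 1 is not reported here. Exceptions are marked. Single-nucleus data and section images were not used here.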

Additional observations from a re-analysis of the deposited data

How the results depend on the processing

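Of 54 alternative values of the ratios to Ttr, 51 kept their sign or moved by less than their spread, and Kcnj13 per Ttr changed sign, at 0.17 with the top 0.5% and 0.084 with the top 2% of spots as choroid plexus spots, and between -0.24 and 0.19 with 1 section left out. Enpp2 per Ttr ran from 1.36 to 2.21, Clic6 from 0.95 to 1.92 and Sostdc1 from 1.11 to 1.61. Ttr in white matter against cortex turned from -0.11 to 0.98 with all spots of the region. Members called against cortex numbered 1 in CA1 and 1 in hypothalamus with DESeq2, 1 in CA1 and 2 in hypothalamus with no filter, and 1 in DG and 2 in white matter with all spots. The last 2 counts include Ttr, on sums that hold spots chosen by the members. With 1 section left out the members called ran from 0 to 1 in CA1, DG, thalamus and hypothalamus. Further choroid plexus genes called over all spots numbered 1 with no filter and 0 to 12 with 1 section left out, and in DG 0 to 1. The cause was not tested, except that all spots of a region include those next to the choroid plexus.

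Calls over all genes moved most between trained and untrained: from 1 to 848 against 2 over all spots, 0 to 51 for CA1 against 9, 0 to 22 for CA3 against 13, 0 to 182 for DG against 3, 0 to 76 against 1 in cortex, 0 to 108 against 1 in thalamus, 2 to 58 against 6 in hypothalamus and 0 to 36 against 14 in white matter. Against cortex the range was 423 to 740 for CA1 (715), 409 to 793 for CA3 (721) and 707 to 1358 for DG (1190), and in the other regions each count stayed within 1.5 times of the one reported. The deviations of same-numbered sections had r = 0.0546 over 8707 genes. With 2 sections per condition both pairs give the same value, so that it cannot settle whether the numbers pair the sections. With the replicate block edgeR called 47 genes over all spots and 35 in CA1, and 0 of the further choroid plexus genes in any region. With 2 sections per condition an exact permutation test of 1 value cannot go below 0.333.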
